A study of Mus musculus with 26 samples.

Results

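The response of the rd10 retina to UNC1999, an inhibitor of the histone methyltransferase EZH2, was compared gene by gene with its response to Romidepsin, an inhibitor of histone deacetylases (HDACs). All 12 RNA-seq libraries of these experiments were used, of 26 libraries in the series, and they were chosen by the inhibitor named in the sample titles. The measure is a difference of differences. It is the log2 fold change between UNC1999-treated and control retinas less the log2 fold change between Romidepsin-treated and control retinas, so a value above 0 means that a gene stood higher under UNC1999 than under Romidepsin, each against its own controls.

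Rd10 mice carry a mutation in Pde6b, the beta subunit of the rod cGMP phosphodiesterase, and lose their rods in the weeks after eye opening. All 12 libraries were made from whole retinas of such mice on the B6.CXB1-Pde6brd10/J background at postnatal day (PN) 24, after a daily intraperitoneal injection from PN9. Each of the 4 groups held 3 libraries: UNC1999 at 15 mg/kg and its controls, and Romidepsin at 0.2 mg/kg and its controls. Controls received saline or diluent, and the sources used here do not agree on which of these the UNC1999 controls received. UNC1999 was given in a mixture of DMSO, PEG300, Tween-80 and saline, and Romidepsin in saline. The labels of the UNC1999 experiment number the strain and, in treated retinas 2 and 3, the inhibitor upwards from sample to sample, and the titles were followed. The titles give the experiments different group numbers, and they have no library in common, so inhibitor, vehicle and experiment cannot be told apart. The labels call the replicates biological but do not say whether they came from separate animals, and p-values measure the spread between these libraries.

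EZH2 is the catalytic subunit of Polycomb repressive complex 2 and places the repressive mark H3K27me3 on histone H3. HDACs remove acetyl groups from histones, and their loss also favours an open chromatin state. The neural retina lies against the retinal pigment epithelium (RPE), a pigmented monolayer that regenerates the visual chromophore, makes melanin and exchanges metabolites with the photoreceptors.

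Libraries held 14860171 to 26119462 counts, a total at which 3 counts correspond to 0.115 to 0.202 CPM (counts scaled to a common normalized library size), and replicates of a group always differed by more than sampling noise. The first principal component of the 12 libraries held 47.3% of the variance and separated the experiments. UNC1999 control 3 lay between the other UNC1999 controls and the treated retinas on it, at 40.9 against 16.2 and 21.2 for its fellow controls and 48.5 to 51.3 for the treated libraries. Its summed level of rod genes, 57059 CPM, also stood between the other controls (31904 and 37171 CPM) and the treated retinas (75429 to 100827 CPM), and the main counts of called genes are also given without it. Marker genes of rods, cones, bipolar cells, Müller glia and microglia were detected in every group, as were RPE genes. A library of bulk retina cannot separate fewer cells of a type from less RNA per cell.

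Of 16447 genes tested, 53 (0.322%) were called higher under UNC1999 than under Romidepsin and 24 (0.146%) lower, 77 in all (0.468%), at a Benjamini-Hochberg adjusted p under 0.05 in edgeR's quasi-likelihood test and an absolute log2 difference over 1. In the same fit UNC1999 alone raised 101 genes (0.614%) and lowered 133 (0.809%), and Romidepsin raised 202 (1.23%) and lowered 151 (0.918%). Across all genes the effects were weakly alike, with a Spearman coefficient of 0.20 given as a description over genes that are not independent, and the sign was opposite in 41.6% of genes. The median log2 difference over all genes was 0.0075. The genes called higher held 15 of the 24 tested RPE genes, and those called lower held Egr1, 1 of 30 immediate-early genes tested.

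**Figure D1:**
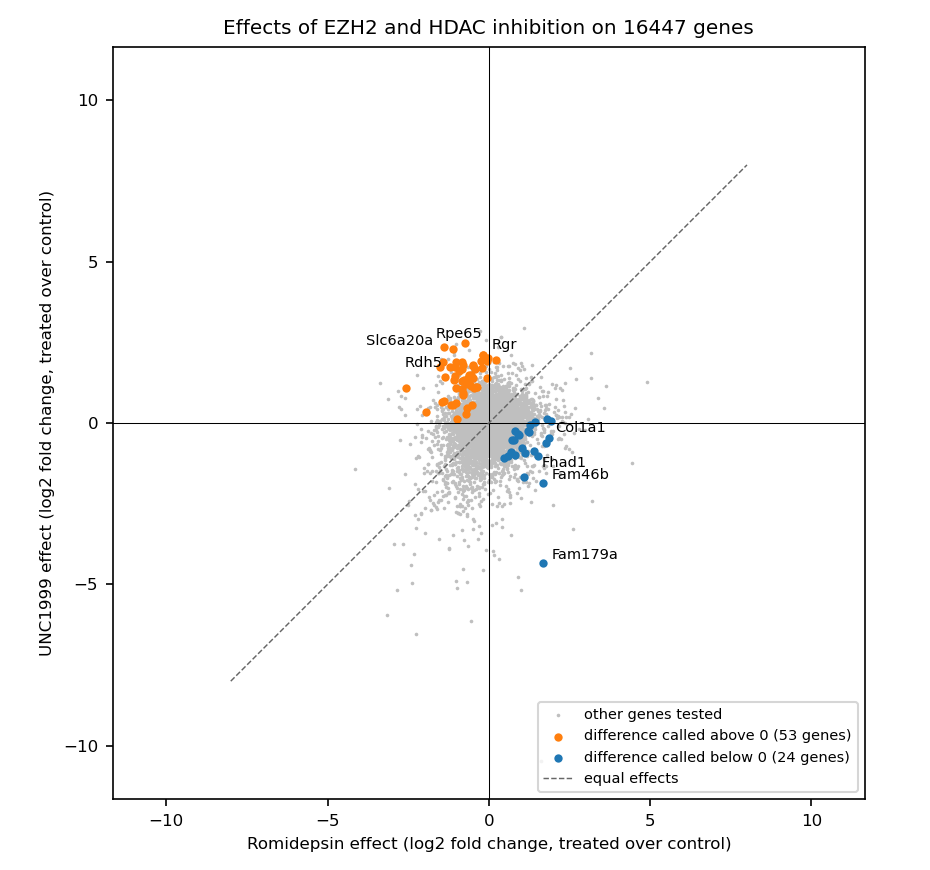
Each point is 1 of 16447 genes, with the Romidepsin effect on the horizontal and the UNC1999 effect on the vertical axis, both as log2 fold changes of treated over control retinas. The 53 genes called higher lie above the dashed line of equal effects, 52 of them in the upper left quadrant, and 21 of the 24 called lower lie in the lower right quadrant.

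The called genes were chosen for a large difference of the effects, which by itself favours opposite signs, so the counts of signs are a description. Of the 53 genes called higher, 52 (0.316% of genes tested) had a UNC1999 effect above 0 and a Romidepsin effect below 0, and Col8a2, a network-forming collagen, was the exception. Among the 24 called lower, 21 (0.128%) had effects of the reverse signs, while BC027072, Col5a3 and Col1a1 were above 0 in both. Each effect also passed on its own, at adjusted p under 0.05, in 17 genes called higher (0.103%) and in 1 called lower, Fam46b (0.00608%), which are all 18 genes (0.109%) with effects of opposite sign that both passed. For another 26 genes called higher only the UNC1999 effect passed and for 10 only the Romidepsin effect. The balance was different among the 24 called lower, where the Romidepsin effect alone passed in 17, the UNC1999 effect alone in 5, and neither in Rprm.

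The replicates separated for most of these genes. The genes were called from the same libraries, which by itself favours separate groups, so these counts too are a description. The 3 UNC1999-treated retinas lay above all 3 controls for 52 of the 53 genes called higher, against 13.6% of all genes, and the Romidepsin-treated retinas lay below their controls for 40 of the 53, against 12.7%. All 24 genes called lower had Romidepsin-treated retinas above every control, against 13.1% of genes, and 14 had UNC1999-treated retinas below every control, against 13.5%. Separation in both experiments in opposite ways was seen for 39 of the 53 and 14 of the 24. Of all genes tested, 145 (0.882%) separated higher under UNC1999 and lower under Romidepsin, 139 (0.845%) did the reverse, 547 (3.33%) separated higher in both and 502 (3.05%) lower in both.

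The RPE list held 25 genes, of which 24 were tested and 15 were called higher under UNC1999 than under Romidepsin. The median UNC1999 effect in the list was 1.41 and the median Romidepsin effect -0.69 (log2), against -0.0022 and -0.011 over all genes. UNC1999 raised 15 of the 24 at adjusted p under 0.05, a threshold that 1.47% of all genes passed upwards, and Romidepsin lowered 9, against 4.09% of all genes. Added over the list, the controls of the UNC1999 experiment stood at 1006 to 1176 CPM and the treated retinas at 1655 to 1861 CPM. The Romidepsin controls stood at 1210 to 1368 CPM and the treated retinas at 744 to 960 CPM, so that neither pair of groups overlapped. Most of the sum in the controls came from members that were not called, and so did most of its fall under Romidepsin. Most of its rise under UNC1999 came from the called genes, so the sums reflect different members in the 2 experiments. One uncalled member, Rlbp1, is also on the Müller glia list. That list summed to 13330 to 15292 CPM in Romidepsin controls and 9948 to 11348 CPM in treated retinas. Whether the amount of pigment epithelium carried along with each retina differed was not tested.

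Among the called RPE genes, Rpe65, Rdh5, Lrat, Stra6 and Ttr handle retinoids or their carriers. Rpe65 (chr3:159262197-159287763, NCBIM37) encodes the isomerohydrolase that forms 11-cis retinol. It measured 4.41, 6.06 and 12.5 CPM in the UNC1999 controls and 46.8, 38.3 and 33.5 CPM in the treated retinas. In the Romidepsin experiment the values were 5.77, 5.30 and 4.94 CPM in controls and 2.34, 2.67 and 1.12 CPM after treatment. Neither pair of groups overlapped, with UNC1999 control 3 the highest of the 6 controls. The UNC1999 effect was 2.37 (adjusted p = 0.0065), the Romidepsin effect -1.40 (adjusted p = 0.0443) and the log2 difference 3.77 (SE 0.50, adjusted p = 0.00548), or 4.29 without that control.

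Rdh5, the 11-cis retinol dehydrogenase that acts after Rpe65, had 8.23, 7.57 and 7.75 CPM in UNC1999 controls against 28.1, 25.4 and 25.5 CPM in treated retinas. Its Romidepsin controls had 6.23, 6.81 and 5.60 CPM and the treated retinas 3.65, 3.26 and 2.15 CPM. UNC1999 thus raised Rdh5 by 1.75 and Romidepsin lowered it, at -1.05, for a log2 difference of 2.80 (SE 0.24, adjusted p = 0.000131). Stra6, the receptor through which RPE takes up retinol, moved likewise: its effects were 1.79 and -0.81 and the difference 2.60 (SE 0.22, adjusted p = 0.000131). Lrat, which esterifies retinol, was raised by UNC1999 (1.68) while its Romidepsin effect of -0.83 did not pass (adjusted p = 0.145). Ttr, a carrier of thyroid hormone, rose under UNC1999 (1.40) and fell under Romidepsin (-0.63).

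A further group within the RPE list differed through UNC1999 alone. Rgr (chr14:37850676-37862150), an opsin of RPE and Müller glia, gave 27.8, 27.7 and 30.0 CPM in UNC1999 controls and 138, 117 and 111 CPM after treatment. Its Romidepsin controls had 15.0, 12.1 and 14.6 CPM and the treated retinas 13.1, 12.9 and 10.8 CPM, which overlapped. Rgr had the smallest p of the called genes, with a log2 difference of 2.27 (SE 0.17, adjusted p = 8.04e-05) made of a UNC1999 effect of 2.10 and a Romidepsin effect of -0.17. Slc16a8, the lactate transporter of the RPE, and Oca2, a melanosome transporter, had UNC1999 effects of 1.93 and 2.00 and Romidepsin effects of -0.05 and -0.02. The Romidepsin effects of these 3 genes did not pass, and each lay under 0.2 in size.

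Among the transport and pigment genes of the RPE, Slc6a20a and Dct passed in opposite directions, while others passed for UNC1999 alone. Slc6a20a (chr9:123545240-123588003), a sodium-coupled imino acid transporter, had 3.13, 3.65 and 4.24 CPM in UNC1999 controls and 16.7, 18.6 and 18.5 CPM in treated retinas. It had 3.08, 2.29 and 3.21 CPM in Romidepsin controls and 1.14, 1.39 and 1.43 CPM after treatment. Its effects of 2.28 and -1.10 gave a log2 difference of 3.39 (SE 0.25, adjusted p = 8.04e-05). Dct, an enzyme of melanin synthesis, rose under UNC1999 (19.7 to 27.4 CPM in controls, 57.3 to 64.4 CPM treated) and fell under Romidepsin (27.1 to 31.3 CPM in controls, 7.07 to 15.3 CPM treated). Tyr, the first enzyme of that pathway, rose under UNC1999 by 1.91, and its Romidepsin effect of -1.02 had an adjusted p of 0.0514. Tyrp1 had effects of 1.73 and -1.22, the latter with an adjusted p of 0.0549, and a log2 difference of 2.94. The melanosome genes Slc24a5 and Gpr143, which are outside the list, were also called higher, with log2 differences of 2.73 and 3.25, and their Romidepsin effects did not pass (adjusted p = 0.116 and 0.0572). Kcnj13, a potassium channel of the RPE, Enpp2, a secreted lysophospholipase, and Ptgds, a prostaglandin D synthase, complete the 15, with log2 differences of 2.12, 1.92 and 2.15.

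**Figure D2:**
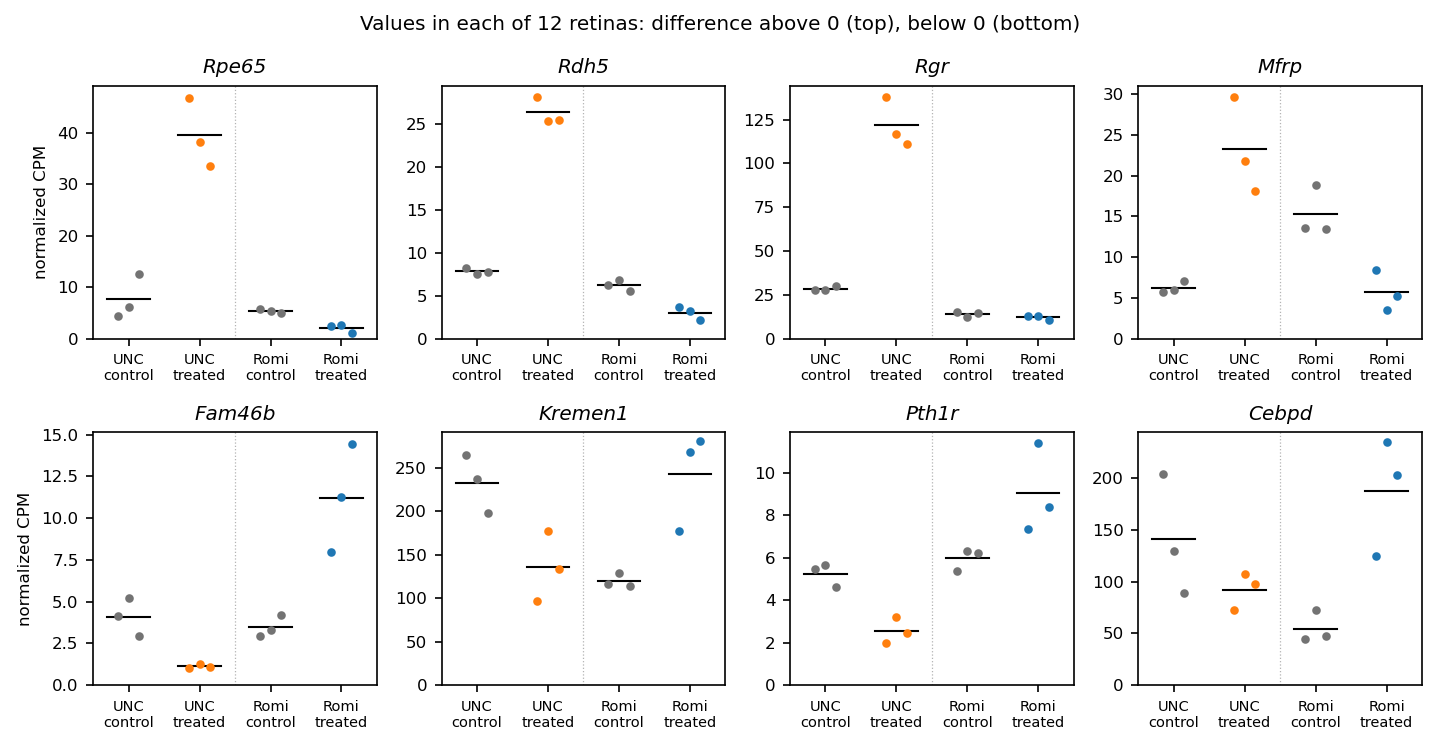
Normalized CPM of 8 genes in each of the 12 retinas, with a bar at the mean of each group of 3. Rpe65, Rdh5 and Mfrp rise with UNC1999 and fall with Romidepsin, Rgr rises with UNC1999 alone, and Fam46b falls with UNC1999 and rises with Romidepsin.

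The 9 tested members of the RPE list that were not called included Rlbp1, Best1, Trf, Mlana, Pmel, Rrh, Mitf and Sulf1. Pmel, the scaffold protein of melanosome fibrils, and Mlana had differences as large as the called genes (2.82 and 2.2) but wide errors (adjusted p = 0.0944 and 0.152). Mitf, the transcription factor of pigment cells, had effects of 0.08 and -0.32 and a log2 difference of 0.40 (adjusted p = 0.454). Best1, a chloride channel of the RPE, was measured at 0.565 to 2.14 CPM in all 12 libraries and had effects of 0.35 and 0.37. Trf, transferrin, lay below 0, at -0.61, and did not pass. Of the 24 tested RPE genes, 21 had a difference above 0 and 3 below, the lowest of these at -1.25. At unadjusted p under 0.05, 19 lay above 0 and 1 below.

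The promoters of Tyr, Dct and Rpe65 are shown because all 3 genes were called higher and the sequence CATGTG, the core of the M-box bound by Mitf and its relatives, lies in all 3. The sequences are from RefSeq on GRCm38.p6, run from 250 bases before to 50 bases after the start of the gene and read 5' to 3' along the gene, and capitals mark CATGTG on either strand.

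Tyr promoter, chr7:87493463-87493762, minus strand: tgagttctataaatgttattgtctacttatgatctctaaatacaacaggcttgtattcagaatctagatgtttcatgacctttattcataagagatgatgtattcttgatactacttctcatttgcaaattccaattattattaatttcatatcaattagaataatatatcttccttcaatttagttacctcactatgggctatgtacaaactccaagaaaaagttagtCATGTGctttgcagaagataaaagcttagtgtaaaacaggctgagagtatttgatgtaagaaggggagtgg
Dct promoter, chr14:118052197-118052496, minus strand: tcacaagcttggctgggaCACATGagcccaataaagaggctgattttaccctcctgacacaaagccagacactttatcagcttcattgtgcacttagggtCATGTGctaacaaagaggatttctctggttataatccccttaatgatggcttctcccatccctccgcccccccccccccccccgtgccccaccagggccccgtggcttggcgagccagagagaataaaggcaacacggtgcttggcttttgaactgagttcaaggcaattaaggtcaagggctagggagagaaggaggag
Rpe65 promoter, chr3:159598931-159599230, plus strand: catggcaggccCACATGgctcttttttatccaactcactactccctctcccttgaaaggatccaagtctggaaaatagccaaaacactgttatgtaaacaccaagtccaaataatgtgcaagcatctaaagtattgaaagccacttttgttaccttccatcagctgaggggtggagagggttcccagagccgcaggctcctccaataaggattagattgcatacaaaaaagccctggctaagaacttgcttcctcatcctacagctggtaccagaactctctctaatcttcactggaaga

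Searched on both strands, CATGTG was present in the promoters of 11 of 40 genes called higher that had a promoter entry (27.5%), in 0 of 13 called lower, and in 8 of 17 RPE genes (47.1%). It was present in 10.5% of the 10743 tested genes with an entry and in 15.9% of all 27025 promoters in that table. The 11 genes are Rgr, Dct, Rpe65, Tyr, Kcnj13, Slc6a13, Slc24a5, Oca2, Wls, Tyrp1 and Pon3. The longer form TCATGTG, which contains CATGTG, was in 7 of the 40 (17.5%) against 2.74% of tested genes. TAATCC, a core read by Otx2 and Crx, was in 9 of the 40 (22.5%) against 7.07%. Of the other motifs searched, CACGTG was in 2 of the 40 and 1 of the 13, TGACGTCA in 0 and 2, and TTCCNNGAA in 2 and 0, against 11.4%, 3.51% and 5.32% of tested genes. These are matches of letters, chosen with the gene lists known, and no binding was measured.

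Beyond the RPE list, 38 genes were called higher. Mfrp (chr9:43909821-43917270), a membrane frizzled-related protein of the RPE and ciliary epithelium, had 5.73, 5.91 and 7.06 CPM in UNC1999 controls and 29.7, 21.8 and 18.2 CPM in treated retinas. It had 13.5, 18.8 and 13.4 CPM in Romidepsin controls and 8.38, 3.48 and 5.19 CPM after treatment, and its log2 difference was 3.32 (SE 0.39, adjusted p = 0.00279). An exon of Mfrp overlaps C1qtnf5 on the same strand, and one of Rdh5 overlaps Bloc1s1, so their counts depend on how shared reads were assigned. Slc39a12, a zinc transporter, rose by 1.33 and fell by 0.78 on the log2 scale under the respective inhibitors. Sema3c, a secreted semaphorin, rose under UNC1999 (1.38), and its Romidepsin effect was -0.48 (adjusted p = 0.103). For Clec18a the Romidepsin effect passed (-1.40), and the UNC1999 effect was 0.70 (adjusted p = 0.0667).

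Matrix and junction genes were divided. Col4a3, a basement membrane collagen, measured 3.61, 4.11 and 6.47 CPM in UNC1999 controls and 12.6, 15.0 and 11.7 CPM treated, and 4.52, 4.73 and 3.31 CPM in Romidepsin controls against 2.50, 1.28 and 2.19 CPM treated. The effects of 1.47 and -1.06 both passed. Nid2, another basement membrane protein, also rose under UNC1999 (0.93) and fell under Romidepsin (-0.80). Col8a1 and Col9a3 had log2 differences of 1.55 and 1.68. Gja1, the gap junction protein connexin 43, ranged from 9.82 to 13.3 CPM in UNC1999 controls and from 22.1 to 27.5 CPM in treated retinas, and from 55.7 to 83.6 CPM in Romidepsin controls and 23.4 to 50.8 CPM treated. The control retinas of the experiments thus differed for Gja1 by more than either inhibitor moved it. The same held for Sned1, a matrix protein, at 11.8 to 20.0 CPM and 153 to 227 CPM in the control groups. Among others it also held for Nid2, at 4.10 to 4.99 CPM and 17.3 to 30.0 CPM in UNC1999 and Romidepsin controls. Clec18a controls likewise had 1.54 to 2.15 CPM and 9.26 to 11.3 CPM. For such genes the difference of effects compares fold changes from unlike starting levels. In the extracellular matrix list as a whole, 22 genes were tested, with Col4a3 called higher and Col1a1 lower and medians of 0.01 and -0.20 for the effects.

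Fam46b (chr4:133036047-133043853), a member of the TENT5 family of non-canonical poly(A) polymerases, gave the reverse pattern. It had 4.14, 5.23 and 2.91 CPM in UNC1999 controls and 1.03, 1.27 and 1.05 CPM after treatment. In the Romidepsin experiment it had 2.95, 3.27 and 4.17 CPM in controls and 7.95, 11.3 and 14.5 CPM after treatment. No groups overlapped. UNC1999 lowered it (-1.87, adjusted p = 0.0112) and Romidepsin raised it (1.69, adjusted p = 0.00695), a log2 difference of -3.56 (SE 0.39, adjusted p = 0.00155). It was the only gene called lower in all 19 alternative fits.

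Of the 14 genes called lower whose treated retinas stood apart from controls in both experiments, the others were Kremen1, a receptor of Dickkopf proteins in Wnt signalling, Pth1r, the parathyroid hormone receptor, Lfng, a glycosyltransferase that modifies Notch, Fhad1, Prtn3, Gm12802, Pdlim3, 4930588N13Rik, Prph, Mlf1, Cerkl, Rprm and Fam179a. Kremen1 (chr11:5091555-5161561) had 265, 237 and 198 CPM in UNC1999 controls and 96.6, 177 and 134 CPM treated, and 116, 129 and 114 CPM in Romidepsin controls against 178, 269 and 282 CPM treated. Its Romidepsin effect passed (1.02, adjusted p = 0.017), its UNC1999 effect was -0.78 (adjusted p = 0.0677), and the log2 difference was -1.80 (SE 0.30, adjusted p = 0.0221). Pth1r stood at 5.47, 5.65 and 4.64 CPM in UNC1999 controls and 2.00, 3.21 and 2.43 CPM treated. It had 5.38, 6.34 and 6.21 CPM in Romidepsin controls and 7.35, 11.4 and 8.42 CPM treated. Its UNC1999 effect passed (-1.03, adjusted p = 0.0329), and its Romidepsin effect was 0.60 (adjusted p = 0.0823). Fhad1 and Lfng had log2 differences of -2.25 and -1.59. An exon of Cerkl overlaps Neurod1 on the same strand and Itga4 on the other, so its counts depend on how shared reads were assigned. Fam179a had the largest difference, -6.02, but it rests on uneven libraries: UNC1999 control 2 held 28.0 CPM against 4.51 and 4.20 CPM in its fellow controls, and the SE was 1.05.

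Another set of genes called lower rose under Romidepsin with UNC1999 effects that did not pass. Rbm3, an RNA-binding protein induced by cold, had 44.4, 51.3 and 49.7 CPM in Romidepsin controls and 90.7, 114 and 135 CPM treated, with effects of 1.22 for Romidepsin and -0.24 for UNC1999. Lbp, which binds bacterial lipopolysaccharide, and Sertad3 rose under Romidepsin by 1.88 and 1.23. BC027072 rose under Romidepsin, from 301, 316 and 301 CPM to 638, 857 and 982 CPM, but its UNC1999 controls already held 642, 547 and 615 CPM and the treated retinas 504, 661 and 677 CPM. Col5a3 and Col1a1, fibrillar collagens, rose under Romidepsin by 1.92 and 1.80 with UNC1999 effects of 0.05 and 0.12. Kcnj8, a potassium channel subunit of pericytes, rose by 0.91 under Romidepsin.

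Egr1, an immediate-early transcription factor, was called lower with a log2 difference of -1.35 (SE 0.24, adjusted p = 0.0306). It had 112, 124 and 93.4 CPM in Romidepsin controls and 189, 293 and 318 CPM treated, and 148, 147 and 124 CPM in UNC1999 controls against 123, 129 and 147 CPM treated. The first pair of groups was apart and the second overlapped. Of the 30 immediate-early genes tested, Egr1 alone was called, 28 had a difference below 0, and 21 were below 0 at an unadjusted p under 0.05, a level that 15.8% of all genes reached in either direction. Romidepsin raised 21 of them at adjusted p under 0.05, against 4.07% of all genes. The UNC1999 effect passed for 0 of the 30 in edgeR's quasi-likelihood test, with 6 above and 3 below 0 at an unadjusted p under 0.05 and 2 raised and 1 lowered by either the likelihood ratio test or DESeq2, and the UNC1999-treated libraries stood apart upwards for 8 and downwards for 3. The list medians were 0.09 for UNC1999 and 1.10 for Romidepsin. The likelihood ratio test and DESeq2 each called 10 of the 30 genes lower, and the fits without UNC1999 control 3 or Romidepsin treated 1 called 7 and 13. Junb and Fos, subunits of AP-1, rose under Romidepsin by 2.28 and 1.77, with log2 differences of -2.22 (adjusted p = 0.0523) and -1.32 (adjusted p = 0.0853).

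Cebpd, a transcription factor of the acute phase response, was the 1 gene called of the 18 in the reactive gliosis list. It measured 44.0, 72.1 and 47.6 CPM in Romidepsin controls and 125, 234 and 203 CPM after treatment, and 204, 129 and 89.3 CPM in UNC1999 controls against 72.8, 107 and 97.3 CPM treated. Romidepsin raised it by 1.78 and the UNC1999 groups overlapped, for a log2 difference of -2.39 (SE 0.43, adjusted p = 0.0305). Of the 18 genes, 17 had a difference below 0, with medians of -0.46 for UNC1999 and 0.80 for Romidepsin. Romidepsin raised 4 of them at adjusted p under 0.05, against 4.07% of all genes, among them Socs3, a feedback inhibitor of cytokine signalling, Bcl3, and Lif, a cytokine. Gfap, the intermediate filament of reactive glia, had effects of -0.42 and 0.27, neither of which passed. The likelihood ratio test called 6 of the 18 lower and DESeq2 4. The UNC1999 controls varied widely in this list, from 2499 CPM in control 3 to 4632 CPM in control 1, and without control 3, 5 of the 18 were called lower.

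**Figure D3:**
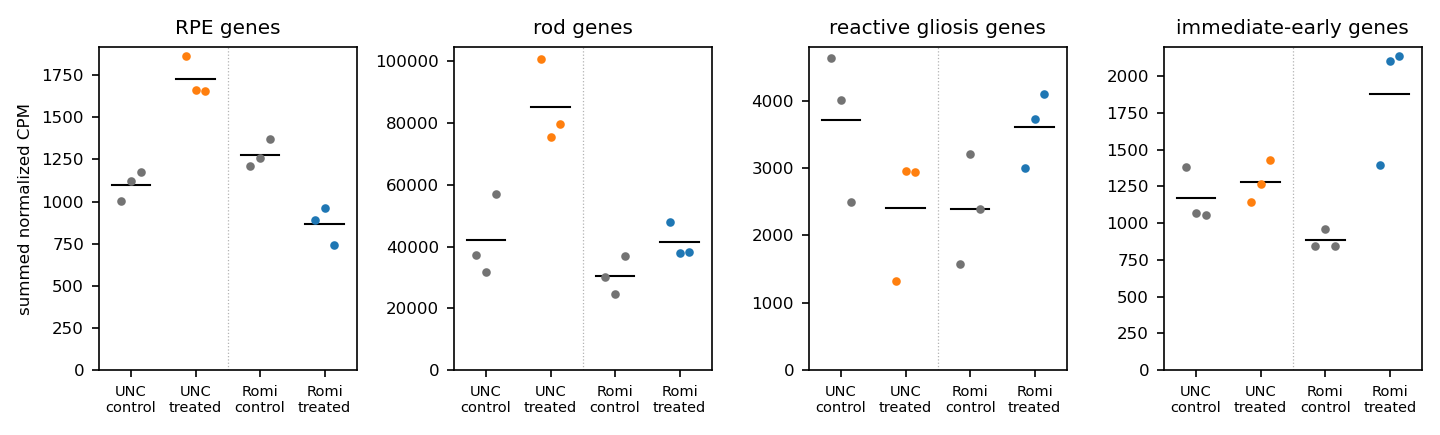
Summed normalized CPM of 4 gene lists in each of the 12 retinas, with a bar at the mean of each group of 3. RPE genes move apart in opposite ways, rod genes stand higher in treated retinas of both experiments, and immediate-early genes stand higher after Romidepsin.

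Cone genes lay higher under UNC1999 than under Romidepsin in 15 of 16 tested, with medians of 0.30 and -0.69. The 2 called were Pde6c, the cone phosphodiesterase, and Ttr, which the cone list shares with the RPE list. Pde6c had 147, 167 and 128 CPM in Romidepsin controls and 103, 84.4 and 81.5 CPM treated, and 154, 146 and 173 CPM in UNC1999 controls against 184, 181 and 214 CPM treated. Romidepsin lowered it by an effect of -0.72 (adjusted p = 0.0096) and the UNC1999 effect was 0.29 (adjusted p = 0.237). Opn1mw, the medium-wave cone opsin, Gnat2, cone transducin, and Cngb3, a cone channel subunit, had log2 differences of 1.56, 1.19 and 1.57 and did not pass (adjusted p = 0.0976, 0.116 and 0.0677). Without UNC1999 control 3, or without Romidepsin treated 1, 7 cone genes were called higher, and the likelihood ratio test and DESeq2 called 6 and 5.

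Most genes of the other retinal neurons did not pass in either experiment in the quasi-likelihood test. Among 17 bipolar genes Grm6, the glutamate receptor of ON bipolar cells, was called higher, with 255, 213 and 209 CPM in Romidepsin controls and 134, 111 and 96.7 CPM treated. Its UNC1999 groups overlapped, at 155 to 202 CPM and 176 to 195 CPM. Romidepsin lowered 6 bipolar, 3 amacrine and horizontal, and 5 ganglion cell genes at adjusted p under 0.05, of 17, 14 and 14 tested, against 4.09% of all genes. The amacrine and horizontal and the ganglion cell lists had no called gene in that test. In the same order of lists, the Romidepsin effect was below 0 in 16, 14 and 14 genes. At unadjusted p under 0.05 it was below 0 in 14, 8 and 8 and above 0 in 1, 0 and 0. The likelihood ratio test lowered 10, 4 and 5 of them under Romidepsin, and DESeq2 10, 4 and 6. UNC1999 lowered 2, 0 and 0 at adjusted p under 0.05 in the quasi-likelihood test, against 1.41% of all genes. Its treated libraries stood apart downwards for 8, 3 and 0 genes, against 13.5%, and upwards for 1, 2 and 1, against 13.6%. The likelihood ratio test and DESeq2 each lowered 3 bipolar genes under UNC1999.

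Rod genes lay on the same side of 0 in both experiments. All 37 had a UNC1999 effect above 0 and 35 a Romidepsin effect above 0, with medians of 0.79 and 0.44, and 0 were called for the difference by the quasi-likelihood test, the likelihood ratio test or DESeq2, with 7 above and 1 below 0 at unadjusted p under 0.05. UNC1999 raised 20 of the 37 and Romidepsin 5 at adjusted p under 0.05, against 1.47% and 4.07% of all genes. Gnat1, rod transducin, differed most, with effects of 1.21 and 0.02 and a difference of 1.19 (adjusted p = 0.193). Microglia genes also lay on the same side, below 0: 23 of 24 were below 0 under UNC1999 and 22 under Romidepsin, with medians of -1.46 and -0.79 and 0 called for the difference by the quasi-likelihood test, with 1 above and 7 below 0 at unadjusted p under 0.05 and 3 called lower by the likelihood ratio test and 2 by DESeq2. UNC1999 lowered 16 and Romidepsin 7 at adjusted p under 0.05, against 1.41% and 4.09% of all genes. Without UNC1999 control 3, 4 microglia genes were called lower under UNC1999 than under Romidepsin and 1 rod gene was called higher.

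Sterol synthesis genes had no single call. Of 21 tested, 16 had a UNC1999 effect above 0 and a Romidepsin effect below 0, a pattern that 21.3% of all genes had, and 14 differed upwards at unadjusted p under 0.05. The medians were 0.38 and -0.12. UNC1999 raised 2 of the 21 at adjusted p under 0.05 and 16 at unadjusted p under 0.05. The Romidepsin effect passed for 0 of the 21 in edgeR's quasi-likelihood test, with 1 above and 2 below 0 at unadjusted p under 0.05 and 1 raised by the likelihood ratio test and by DESeq2. Insig1, a regulator of sterol synthesis, had 68.1, 68.0 and 73.2 CPM in UNC1999 controls and 104, 101 and 114 CPM treated, and 64.5, 68.3 and 55.2 CPM in Romidepsin controls against 60.9, 37.7 and 44.1 CPM treated, a log2 difference of 1.00 (adjusted p = 0.0517). Dhcr7, which makes cholesterol from its last precursor, was raised by UNC1999 (0.62). Without Romidepsin treated 1, 3 of these genes were called, and the likelihood ratio test and DESeq2 each called 1.

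**Figure D4:**
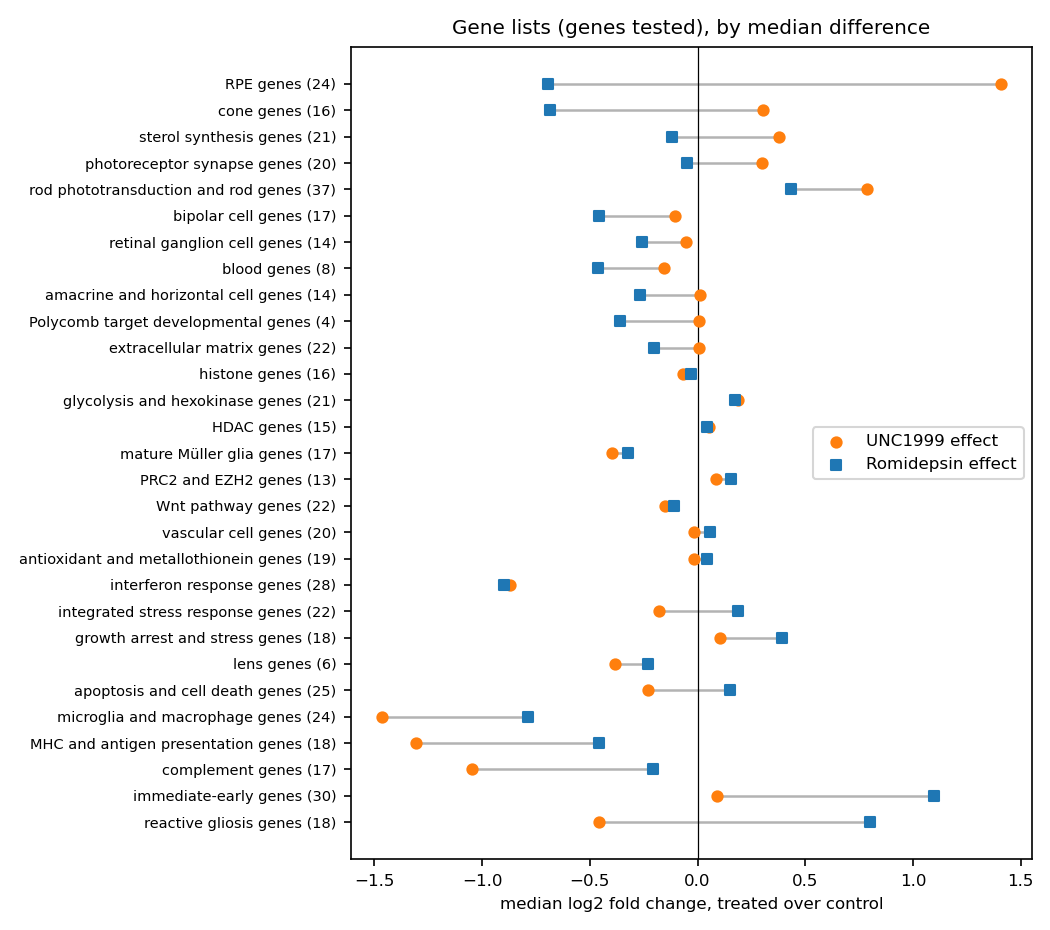
Median log2 fold change under UNC1999 (circles) and Romidepsin (squares) for 29 gene lists, ordered by the median difference, with the number of genes tested in brackets. RPE genes lie at the top, with medians of 1.41 and -0.69, and reactive gliosis genes at the bottom, with -0.46 and 0.80.

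Of the 29 lists, 7 held a called gene: the RPE, cone, bipolar, extracellular matrix, vascular, immediate-early and reactive gliosis lists. MHC and antigen presentation genes had medians of -1.31 and -0.46 and complement genes of -1.05 and -0.21, with 0 called in each by the quasi-likelihood test. At unadjusted p under 0.05, 3 MHC genes and 8 complement genes lay below 0 and 0 and 2 above, and the likelihood ratio test and DESeq2 each called 0 MHC and 2 complement genes lower. Without UNC1999 control 3, whose MHC sum of 482 CPM lay below the 818 and 1016 CPM of its fellow controls, the UNC1999 medians were -1.58 and -1.22 and 2 complement genes were called lower. Apoptosis genes had a median difference of -0.46, and Bbc3, an activator of apoptosis, rose under Romidepsin by 0.87. The stress list was led by Gadd45b, a growth arrest gene that Romidepsin raised by 2.48, with a log2 difference of -2.30 (adjusted p = 0.0582). The metallothioneins Mt1 and Mt2 rose under Romidepsin by 1.95 and 2.16 and had differences that did not pass. At unadjusted p under 0.05, 11 of 25 apoptosis genes, 4 of 18 stress genes and 4 of 19 antioxidant and metallothionein genes differed downwards. In the same order, 1, 1 and 0 differed upwards. The likelihood ratio test and DESeq2 each called 1, 2 and 2 of them lower. Interferon response genes had medians of -0.87 and -0.90, but 0 of 28 passed in either experiment in the quasi-likelihood test, with 8 below 0 under UNC1999 and 6 under Romidepsin at unadjusted p under 0.05, and with 2 and 1 lowered by the likelihood ratio test and 1 and 0 by DESeq2. Their Romidepsin controls summed to 510, 2254 and 1631 CPM, and the Romidepsin median was -1.34 without control 1 and -0.40 without control 2. The UNC1999 median was -0.44 without UNC1999 control 1 and -1.35 without UNC1999 treated 2. In the remaining lists, Müller glia, lens, blood, Polycomb targets (4 of 31 tested), PRC2, HDAC, histone, photoreceptor synapse, Wnt, glycolysis and the integrated stress response, no gene was called by the quasi-likelihood test and both medians lay between -0.46 and 0.30. Romidepsin lowered 6 of 17 Müller glia genes and UNC1999 2 at adjusted p under 0.05, against 4.09% and 1.41% of all genes. At the same threshold Romidepsin raised 2 and lowered 4 of 22 integrated stress response genes, against 4.07% and 4.09% of all genes. It raised 1 and lowered 3 of 16 histone, 3 and 1 of 22 Wnt, and 1 and 2 of 8 blood genes. Integrated stress response genes summed to 1252 to 1383 CPM in Romidepsin controls and 1530 to 1747 CPM treated. Of these 22, 7 differed downwards and 1 upwards at unadjusted p under 0.05. Of 20 photoreceptor synapse genes, 8 differed upwards and 0 downwards at unadjusted p under 0.05. The likelihood ratio test and DESeq2 each called 1 Müller glia, 1 lens and 1 integrated stress response gene lower. Each also called 1 histone and 1 Wnt gene higher.

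The genes of the inhibited enzymes were not called. Ezh2 had 11.9, 14.1 and 11.6 CPM in Romidepsin controls and 18.2, 18.0 and 17.5 CPM treated, which did not overlap, and 12.7 to 13.4 CPM in UNC1999 controls against 11.1 to 14.9 CPM treated. Its log2 difference was -0.51 (95% interval from -0.90 to -0.12, adjusted p = 0.198). Ezh1, Hdac1, Hdac2 and Hdac3 had UNC1999 effects of 0.25, -0.08, -0.01 and 0.09 and Romidepsin effects of 0.16, 0.04, 0.10 and 0.12. Both agents act on the enzymes and not on their transcripts, so these levels do not measure inhibition.

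Some genes moved together under both inhibitors, and 46 rose and 29 fell with both effects at adjusted p under 0.05 (0.28% and 0.176% of genes). Hk2, hexokinase 2, rose by 0.83 and 1.10, Spry2, an inhibitor of receptor tyrosine kinase signalling, by 0.71 and 0.90, and Slco4a1, an organic anion transporter, by 0.74 and 1.01. Unc93b1, a chaperone of Toll-like receptors, fell with effects of -1.10 and -1.09, Elovl5, a fatty acid elongase, with -0.41 and -0.49, and Cd22 with -2.78 and -2.09. Of 29 genes that the study names, Pde6c alone was called for the difference, and 4 had effects of opposite sign.

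The number of called genes depended on single libraries. Without UNC1999 control 3, 164 genes were called higher and 280 lower, and without Romidepsin treated 1 the counts were 179 and 205, and all 77 genes were called in each of these fits. Leaving out any of the other 10 libraries gave 27 to 44 genes higher and 3 to 18 lower. In all 12 of these fits 25 genes remained called higher and 2 lower, Fam46b and BC027072. The likelihood ratio test of edgeR called 169 higher and 262 lower. All 77 genes kept their sign in each of the 19 alternative fits that tested them, and 19 of the 53 called higher stayed called in every one, among them Rpe65, Rgr, Rdh5, Stra6, Ttr, Dct, Tyr, Slc6a20a, Ptgds and Mfrp. The RPE list held 10 to 17 called genes over these fits.

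**Figure D5:**
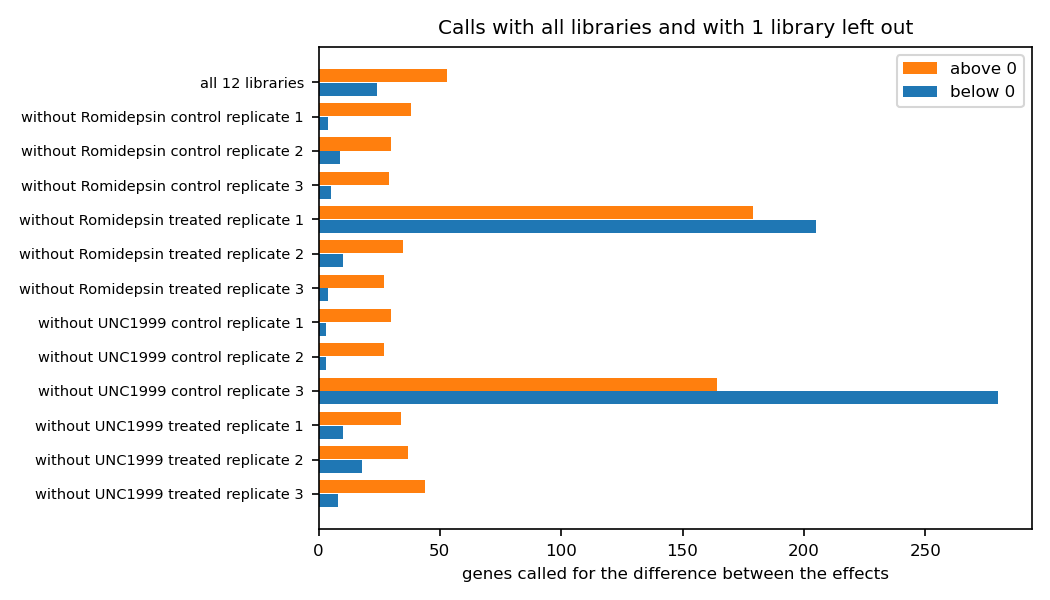
Number of genes called for the difference between the effects, above 0 and below 0, with all 12 libraries (53 and 24) and with each library left out in turn. The counts rise to 164 and 280 without UNC1999 control 3 and to 179 and 205 without Romidepsin treated 1, and lie between 27 and 44 and between 3 and 18 without any other library.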

How the data were processed

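Whole retinas of rd10 mice were sequenced as stranded poly(A) RNA libraries, and 12 libraries in 4 groups of 3 were analysed. The authors trimmed reads with BBDuk, aligned them with HISAT2 2.2.1 to NCBIM37 and counted them per Ensembl gene with HTSeq 0.11.2, and deposited raw counts for 37991 genes. For counting by strand, the setting is not given in the sources used here, and 23 of the called genes share exon sequence with another gene, 21 of them on the opposite strand. Counts were then filtered with filterByExpr, normalized by TMM (factors 0.905 to 1.07) and fitted by quasi-likelihood in edgeR 4.0.16 (R 4.3.3) with 4 groups. The contrasts were the effect of each inhibitor and their difference, called at an adjusted p under 0.05 and an absolute log2 value over 1. CPM are TMM-normalized, and the SE and the 95% interval come from the fit. The script was tested on simulated data. Each group had 3 libraries, which limits precision. Genes were named by a rule: the 10 called genes of smallest p in each direction with opposite effects and separate libraries, the leading members of gene lists, genes the study names, the inhibited enzymes and the genes moved most alike. Rgr, the other called genes and the uncalled RPE, gliosis, cone and rod genes given beyond these were named after their values were seen. The members and gene lists were chosen with earlier results of these data known. Symbols and positions follow GENCODE M1, which matched 37205 identifiers. Each count of genes was also made with edgeR's likelihood ratio test, with DESeq2 1.42.0, with size factors by RLE normalization, other filters, no fold threshold, a replicate block, all 22 retina libraries in a single fit, and each library left out. Values of some genes on the lists are not reported here.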

Additional observations from a re-analysis of the deposited data

Results flagged for a closer look

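A signal in libraries outside the comparison stood above their controls. In the experiment with UNC0642, an inhibitor of other histone methyltransferases, the lowest treated retina had 1383 CPM summed over the RPE list and the highest control 1366 CPM, so the 2 treated retinas lay above the 2 controls by a narrow margin. No test was made, and no formal outlier test was run on groups of 3 libraries.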

How the results depend on the processing

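Counts are given as genes higher and lower, first for the difference (53 and 24), then for the UNC1999 effect (101 and 133), the Romidepsin effect (202 and 151) and called genes with opposite signs (52 and 21). The likelihood ratio test gave 169 and 262, 157 and 341, 282 and 234, and 158 and 234. DESeq2 gave 143 and 236, 134 and 287, 227 and 194, and 136 and 209. No filter on low counts gave 97 and 140, 125 and 218, 209 and 182, and 95 and 128. All 22 retinas in a single fit gave 147 and 268, 159 and 278, 312 and 208, and 139 and 245. No fold threshold gave 56 and 25, 241 and 232, 669 and 673, and 55 and 21. RLE normalization and a minimum of 10 counts in every library moved no count by over 1.5 times, with 54 and 27 and 51 and 23 for the difference. The replicate block gave 27 and 6, 63 and 45, 101 and 57, and 27 and 6. In the titles, same-numbered control and treated libraries are joined only by a replicate number. Their deviations from the group means correlated at -0.249, 0.206 and -0.0385 in the UNC1999 and 0.193, -0.0355 and -0.262 in the Romidepsin experiment. Libraries of unlike number correlated at -0.308 to 0.330. With 3 libraries around each group mean, these values cannot show whether the libraries were paired. With 1 library left out the difference gave 27 to 179 and 3 to 280, the UNC1999 effect 21 to 240 and 1 to 420, the Romidepsin effect 60 to 325 and 24 to 287, and opposite signs 26 to 155 and 2 to 250.

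For the difference, leaving out Romidepsin control 1, 2 or 3 gave 38 and 4, 30 and 9, and 29 and 5, and Romidepsin treated 1, 2 or 3 gave 179 and 205, 35 and 10, and 27 and 4. Leaving out UNC1999 control 1, 2 or 3 gave 30 and 3, 27 and 3, and 164 and 280, and UNC1999 treated 1, 2 or 3 gave 34 and 10, 37 and 18, and 44 and 8. The UNC1999 effect fell to 27 and 2 and to 21 and 1 without UNC1999 control 1 or 2 and rose to 240 and 420 without control 3. The causes were not tested. Gene by gene, over 123 genes, 1895 values stayed on their side of the threshold, 289 lost and 115 gained the call, and 27 turned in sign, all for differences that were not called: Best1 (0.0232 with the replicate block), Unc93b1 (0.0029 with DESeq2, 0.0034 with RLE normalization, 0.0093 with no filter and 0.0054 with the block), and, over the fits without 1 library, Best1 (-0.261 to 0.144), Guca1b (-0.264 to 0.222), Hdac1 (-0.226 to 0.00023), Hdac2 (-0.211 to 0.0196), Hdac3 (-0.095 to 0.0463), Unc93b1 (-0.144 to 0.163) and Selenbp1 (-0.699 to 0.254). Selenbp1 had a main difference of -0.44 and turned above 0 without Romidepsin treated 3. At the lowest depth, 3 counts correspond to 0.202 CPM, and differences below that level cannot be resolved.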

Other observations

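RPE genes were also summed in the retinas treated with DZNep, an agent that lowers EZH2 by another route. The 2 treated retinas had 1182 and 1608 CPM, and the 4 controls lay between 1124 and 1368 CPM, so the groups overlapped. On the same scale, set over all 22 retina libraries, the UNC1999-treated retinas had 1667 to 1880 CPM and the Romidepsin-treated retinas 755 to 988 CPM.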
